A study of Mus musculus with 6 samples.

Results

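*Cartpt* encodes the precursor of the CART (cocaine- and amphetamine-regulated transcript) peptides, and 7 further genes encode proteins that process neuropeptide precursors or that may bind CART. The 7 were *Pcsk1*, *Pcsk2* and *Furin* (proprotein convertases), *Scg5* (a chaperone of *Pcsk2*), *Cpe* (carboxypeptidase E), *Pam* (peptidylglycine alpha-amidating monooxygenase) and *Gpr160* (a proposed CART receptor). These 8 genes are 8 of the 55401 gene identifiers counted in each library, and all 8 were found by symbol. *Cartpt* was chosen by its measured rise in these same libraries, so its difference between genotypes is a description without a test. The other 7 were selected by their known role. The question was whether tibia carries transcripts for the machinery to mature and sense the CART peptide. The processing genes are those of neuropeptides in general, and which of their steps CART itself undergoes, amidation among them, was not examined.

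RNA came from whole tibias of male mice at 8 weeks of age, with 3 Atrx-cKO libraries (genotype *Osterix-Cre; Atrx* f/y) and 3 control libraries (*Atrx* f/y), and polyadenylated RNA was sequenced. Both genotypes carried the floxed *Atrx* allele on their only X chromosome, and only the Atrx-cKO mice carried the Cre transgene, in which the *Sp7* (*Osterix*) promoter drives Cre in preosteoblasts. The transgene is of the Tet-off kind and doxycycline held it silent until 3 weeks of age, so deletion was postnatal. No library combined the transgene with an intact *Atrx* allele, so the effects of Cre and of *Atrx* loss cannot be told apart. The tibias held marrow and other cells in which Cre was not driven, and in bulk tissue fewer cells of a type and less RNA per cell cannot be told apart.

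Neuropeptides are made as long precursors. A signal peptide is removed as the chain enters the endoplasmic reticulum, where disulfide bonds form, and convertases then cut after pairs of basic residues, mostly in the regulated secretory pathway. Carboxypeptidase E trims the basic residues left at the cut end, and some peptides are amidated by PAM. Neurons and endocrine cells store the products in dense-core granules and release them on stimulation, whereas furin and related convertases act in the secretory pathway of most cells. CART peptides are best known from the hypothalamus, where they act on feeding.

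The cyclic AMP response element (CRE), the site of CREB-family factors, is shown because CREB acts on the *Cartpt* promoter. The 8-base element TGACGTCA, which reads the same on both strands, was searched in the 250 bases upstream of each RefSeq start site on GRCm38.p6. It was found in 508 of 32851 promoter windows (1.55%). Windows were present for 7 of the 8 genes (9 windows), *Cpe* being the exception, and 2 of the 7 genes held the element. In *Cartpt* it lay 112 to 105 bases before the start (chr13:99900777-99900806, minus strand), within the first exon of a longer GENCODE transcript. In *Pcsk1* it lay 78 to 71 bases before the start (chr13:75089768-75089797, plus strand). The element is in capitals, and a match describes letters and no binding.
*Cartpt*: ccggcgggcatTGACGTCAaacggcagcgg
*Pcsk1*: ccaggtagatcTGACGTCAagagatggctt

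Rodent *Cartpt* is spliced into a longer and a shorter coding form, and the stretch that separates them is shown because the gene counts pool both forms. In GENCODE M21 the second of 3 exons is 123 bases long in one transcript and 84 in the other. The 39 extra bases (13 codons) lie at chr13:99900041-99900079 on the minus strand of GRCm38.
*Cartpt* exon 2 extra stretch: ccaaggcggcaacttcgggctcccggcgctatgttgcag

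Library depth ranged from 50977777 to 70571655 counts on genes, and 3 counts, the most that a count of 0 allows, correspond to 0.0425 to 0.0588 CPM (counts scaled to library size). Such limits cover counting error only, since reads were counted without molecular identifiers. *Atrx* itself (chromosome X, 105797615 to 105929403) was at 153, 166 and 171 CPM in Atrx-cKO and 174, 166 and 165 CPM in control libraries. The groups did not separate (log2 fold change -0.047, SE 0.080, adjusted p = 0.992, edgeR), and a count over the whole gene in whole tibia does not measure the floxed exon in preosteoblasts. The 7 osteoblast lineage markers, among them *Sp7* and *Bglap*, were present in every library, with a summed level of 63097 to 63619 CPM in Atrx-cKO and 58526 to 100089 CPM in control. Most of each sum was *Col1a1*. Control replicate 3 stood apart in 6 skeletal muscle markers, which summed to 11928 CPM there and to 625 to 2198 CPM in the other 5 libraries. Results that rest on that library are given with and without it.

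*Cartpt* was abundant in every Atrx-cKO library and nearly absent from the controls. The gene (ENSMUSG00000021647, chromosome 13, 99898489 to 99901091, minus strand of GRCm38) had 11232, 8368 and 8763 counts in Atrx-cKO replicates 1 to 3. The controls had 0, 1 and 30 counts. As CPM normalized by TMM, these were 192, 147 and 149 in Atrx-cKO (162 ± 25.7, SD, n = 3) and 0, 0.0150 and 0.630 in control (0.215 ± 0.360, SD, n = 3). The groups were far apart, and the spread among the controls came from 1 library.

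That library was control replicate 3, the one with the high muscle markers. Whether the tissue behind those markers had a part in the 30 counts was not tested. The other controls, at 0 and 1 counts, were under the limit that a count of 0 allows. The fitted log2 fold change was 9.75 (SE 0.75) with all libraries and 13.95 without control replicate 3, a fitted value that depends on the prior count and is no bound. With the muscle marker level as a covariate it was 10.59.

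Across all tested genes, a rise of any size at an adjusted p under 0.05 was rare. Of 20636 genes, 3 were called higher (0.0145%) and 0 lower (0%) in Atrx-cKO by edgeR's quasi-likelihood test, *Cartpt* among the 3. With 1 library left out, 0 to 5 were called higher. An unadjusted p under 0.05 was reached by 751 genes (3.64%). Because *Cartpt* was chosen on this contrast, nothing is read from its call.

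Levels of different genes were compared per length, as TPM (counts per kilobase of merged exons, scaled to the same total in each library). *Cartpt* reached 492, 396 and 401 TPM in Atrx-cKO libraries (429 ± 54.1, SD, n = 3). It ranked 199th, 247th and 231st among the genes with a count in each library. In control replicate 3, the highest control, it was at 1.58 TPM, above 38.4% of the genes with a count.

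**Figure D1:**
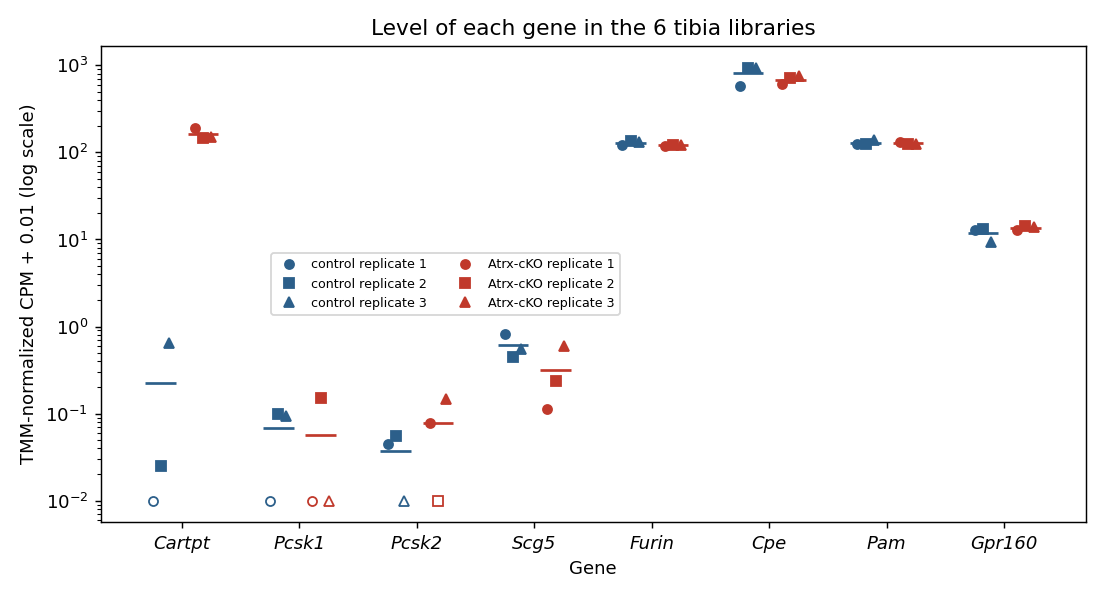
TMM-normalized CPM, with 0.01 added for display on a log axis, of the 8 genes in each of the 6 libraries. Points are libraries, open points are counts of 0 and bars are group means. *Cartpt* stands at 147 to 192 CPM in the Atrx-cKO libraries and at 0.630 CPM or less in the controls, and for every other gene the points of the 2 genotypes overlap in range.

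*Pcsk1* and *Pcsk2*, convertases of the regulated pathway, were at the edge of detection in every tibia library. *Pcsk1* (ENSMUSG00000021587, chromosome 13, 75089826 to 75134861), which makes the first cuts in many prohormones, had 0, 8 and 0 counts in Atrx-cKO and 0, 6 and 4 in control. *Pcsk2* (ENSMUSG00000027419, chromosome 2, 143546156 to 143816285), which cuts further to the short peptides, had 4, 0 and 8 counts in Atrx-cKO and 2, 3 and 0 in control. Neither gene separated the genotypes, and in 5 of the 12 values the count was 0.

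Per length, *Pcsk1* was at 0.0287 ± 0.0498 TPM in Atrx-cKO and 0.0337 ± 0.0293 TPM in control (SD, n = 3 each). *Pcsk2* was at 0.0291 ± 0.0295 TPM in Atrx-cKO and 0.0115 ± 0.0101 TPM in control (SD, n = 3 each). Where a count was 0, the limit was 0.0299 to 0.0332 TPM for *Pcsk1* and 0.0229 to 0.0254 TPM for *Pcsk2*.

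Both genes fell under edgeR's expression filter and were not tested in the reported fit. Fitted without the filter, *Pcsk1* had a log2 difference of -0.30 (SE 1.61, 95% interval -3.70 to 3.08, adjusted p = 0.993, edgeR). *Pcsk2* had 1.23 (SE 1.54, 95% interval -1.96 to 4.53, adjusted p = 0.878, edgeR). These intervals leave room for large differences either way, so a change of either convertase was not detectable at this depth. Antisense genes overlap *Pcsk2* (*Pcsk2os1* and *Pcsk2os2*, 0 to 4 counts per library), and the strand setting of the counting is not given in the sources used here, so some of these few reads may belong to them.

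*Scg5* (ENSMUSG00000023236, chromosome 2, 113776362 to 113829121), whose product keeps pro-*Pcsk2* folded until it matures, was low but above *Pcsk2*. It had 6, 13 and 35 counts in Atrx-cKO and 46, 29 and 26 in control. In CPM these were 0.103, 0.228 and 0.594 (0.308 ± 0.255, SD, n = 3) and 0.806, 0.435 and 0.546 (0.596 ± 0.190, SD, n = 3). Replicate 3 of Atrx-cKO lay within the control range and the other Atrx-cKO libraries lay below it. The log2 fold change was -0.94 (SE 0.62, 95% interval -2.38 to 0.49, adjusted p = 0.992, edgeR). It was -1.84 without Atrx-cKO replicate 3 (unadjusted p = 0.0159, adjusted p = 0.998) and -0.53 without Atrx-cKO replicate 1, so single libraries set its size.

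*Furin* (ENSMUSG00000030530, chromosome 7, 80388585 to 80405436), the convertase of the constitutive pathway, was present at like levels in all 6 tibias. It was at 119, 121 and 122 CPM in Atrx-cKO (121 ± 1.31, SD, n = 3) and 121, 135 and 130 CPM in control (129 ± 7.17, SD, n = 3). The ranges overlapped at their edge. The log2 fold change was -0.089 (SE 0.075, adjusted p = 0.992, edgeR), and the 95% interval of the fold ran from 0.833 to 1.06. Per length it was 44.6 ± 1.79 TPM in Atrx-cKO and 46.8 ± 1.62 TPM in control (SD, n = 3 each). An antisense gene that overlaps it, *Gm44851*, had 7 to 32 counts per library, against 6204 or more for *Furin*.

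Of the 9 convertase genes together, tibia held mainly *Pcsk6*, *Mbtps1*, *Furin*, *Pcsk7* and *Pcsk5*. *Pcsk6*, a convertase anchored near the cell surface by matrix proteoglycans, was the highest, at 151 ± 12.4 TPM in Atrx-cKO and 172 ± 36.9 TPM in control (SD, n = 3 each). It made up 48.2% to 57.5% of the summed convertase level per library. *Mbtps1*, the site-1 protease that cuts membrane-bound transcription factors, was at 46.8 ± 5.08 and 46.4 ± 2.21 TPM, and *Furin* supplied 13.6% to 16.9% of the sum. *Pcsk7* (30.4 and 31.3 TPM) and *Pcsk5* (16.4 and 20.1 TPM) followed, the Atrx-cKO mean standing first. *Pcsk1* and *Pcsk2* together made up 0.0104% to 0.0277% in Atrx-cKO and 0.00572% to 0.0202% in control. The shares depended on the length used. With the longest transcript of each gene, *Pcsk6* made up 41.3% to 50.0% and *Furin* 16.1% to 19.7%.

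None of the 5 other convertases tested was called in either direction, and their median log2 fold change was -0.058. The median over all tested genes was 0.0050. *Pcsk4*, better known from germ cells, had groups that did not overlap (2.10 ± 0.411 TPM in Atrx-cKO and 1.34 ± 0.377 TPM in control, SD, n = 3 each). Its log2 fold change was 0.64 with an adjusted p of 0.992 (edgeR), and it was named after its values were seen. Groups did not overlap for 8.31% of all tested genes.

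**Figure D2:**
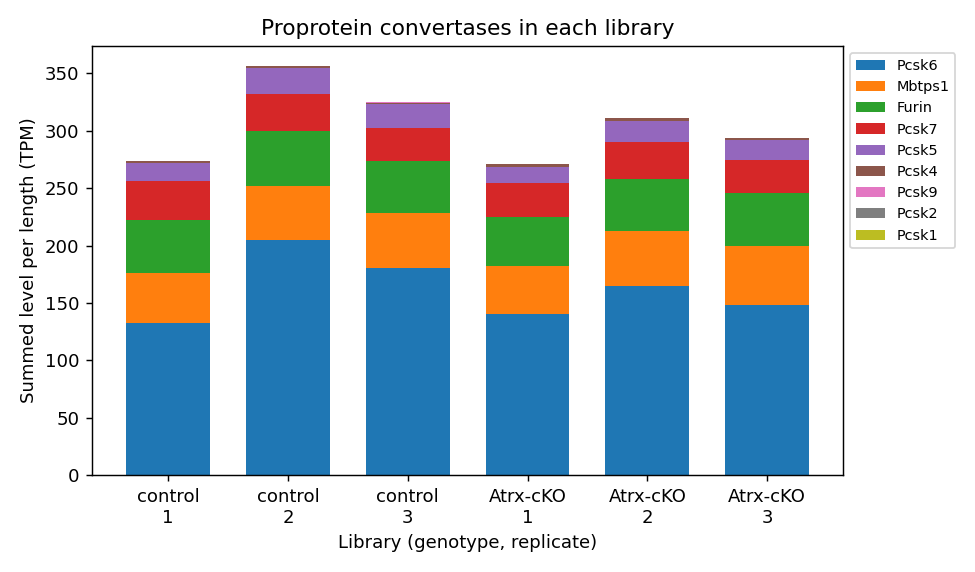
Summed level per length (TPM, linear axis from 0) of 9 proprotein convertase genes in each library, stacked by gene. The sums run from 271 to 311 TPM in Atrx-cKO and from 274 to 356 TPM in control, *Pcsk6* is the largest segment in all 6 bars, and *Pcsk1* and *Pcsk2* are too small to be seen.

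*Cpe* (ENSMUSG00000037852, chromosome 8, 64592542 to 64693054), which removes the basic residues that convertases leave behind, was the most abundant of the 8 genes in both genotypes. It was at 605, 707 and 752 CPM in Atrx-cKO (688 ± 75.4, SD, n = 3) and 582, 944 and 929 CPM in control (818 ± 204, SD, n = 3). Control replicate 1 was the lowest of the 6 libraries and the other 2 controls were the highest, so the groups overlapped. The log2 fold change was -0.25 (SE 0.19, adjusted p = 0.992, edgeR), with a 95% interval of the fold from 0.616 to 1.15. Without control replicate 1 it was -0.44 (unadjusted p = 0.00586, adjusted p = 0.270).

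The summed osteoblast lineage markers had a similar order across the controls, at 58526, 100089 and 89959 CPM for replicates 1 to 3, and were at 63097, 63322 and 63619 CPM in Atrx-cKO. Their part in the *Cpe* values was not tested. Per length, *Cpe* was at 895 ± 122 TPM in Atrx-cKO and 1041 ± 220 TPM in control (SD, n = 3 each). It ranked 115th, 84th and 77th in the Atrx-cKO libraries and 105th, 64th and 70th in the controls. Control tibia, with 30 or fewer *Cartpt* counts per library, thus already held *Cpe* at this level.

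The 7 other genes of the same carboxypeptidase family were all tested and 0 were called. Their median log2 fold change was -0.15. *Cpz*, a secreted carboxypeptidase that binds Wnt proteins, was at 194 ± 8.83 TPM in Atrx-cKO and 268 ± 65.5 TPM in control (SD, n = 3 each), with a log2 fold change of -0.49 (SE 0.19, unadjusted p = 0.0309, adjusted p = 0.992, edgeR). *Aebp1*, a collagen-binding member of the family, was at 47.4 ± 8.18 and 74.7 ± 26.0 TPM (log2 fold change -0.69, SE 0.28, unadjusted p = 0.0404, adjusted p = 0.992, edgeR). For both genes the genotypes overlapped. *Cpd*, the Golgi enzyme that follows furin in the constitutive pathway, was at 55.3 TPM in Atrx-cKO and 53.6 TPM in control, and it was named after its values were seen.

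*Pam* (ENSMUSG00000026335, chromosome 1, 97795114 to 98095646), the only enzyme known to amidate peptide C-termini, was even across the libraries. It was at 133, 124 and 125 CPM in Atrx-cKO (127 ± 5.34, SD, n = 3) and 125, 124 and 137 CPM in control (129 ± 7.35, SD, n = 3). The log2 fold change was -0.020 (SE 0.079, adjusted p = 0.994, edgeR), with a 95% interval of the fold from 0.868 to 1.12. Its sign turned to 0.015 without control replicate 3. Per length it was 36.2 ± 0.423 TPM in Atrx-cKO and 36.2 ± 1.52 TPM in control (SD, n = 3 each). A transcript on the same strand, *B230216N24Rik*, overlaps its exons and had 80 to 153 counts per library, against 6536 or more for *Pam*.

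*Gpr160* (ENSMUSG00000037661, chromosome 3, 30855950 to 30897192), an orphan G protein-coupled receptor that has been proposed to bind CART, was expressed at a middling level in both genotypes. It had 742, 818 and 817 counts in Atrx-cKO and 727, 869 and 448 in control. In CPM these were 12.7, 14.3 and 13.9 (13.6 ± 0.844, SD, n = 3) and 12.7, 13.0 and 9.41 (11.7 ± 2.02, SD, n = 3). The low value was control replicate 3, the library with high muscle markers, and the other controls lay near the Atrx-cKO values.

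The log2 fold change of *Gpr160* was 0.21 (SE 0.15, adjusted p = 0.992, edgeR), with a 95% interval of the fold from 0.915 to 1.47, and it was 0.067 without control replicate 3. Per length, the receptor gene was at 10.9 ± 0.985 TPM in Atrx-cKO and 9.33 ± 1.93 TPM in control (SD, n = 3 each). It stood above 55.7% to 63.7% of the genes with a count in a library. Which cells of the tibia held the transcript is not given by bulk counts.

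**Figure D3:**
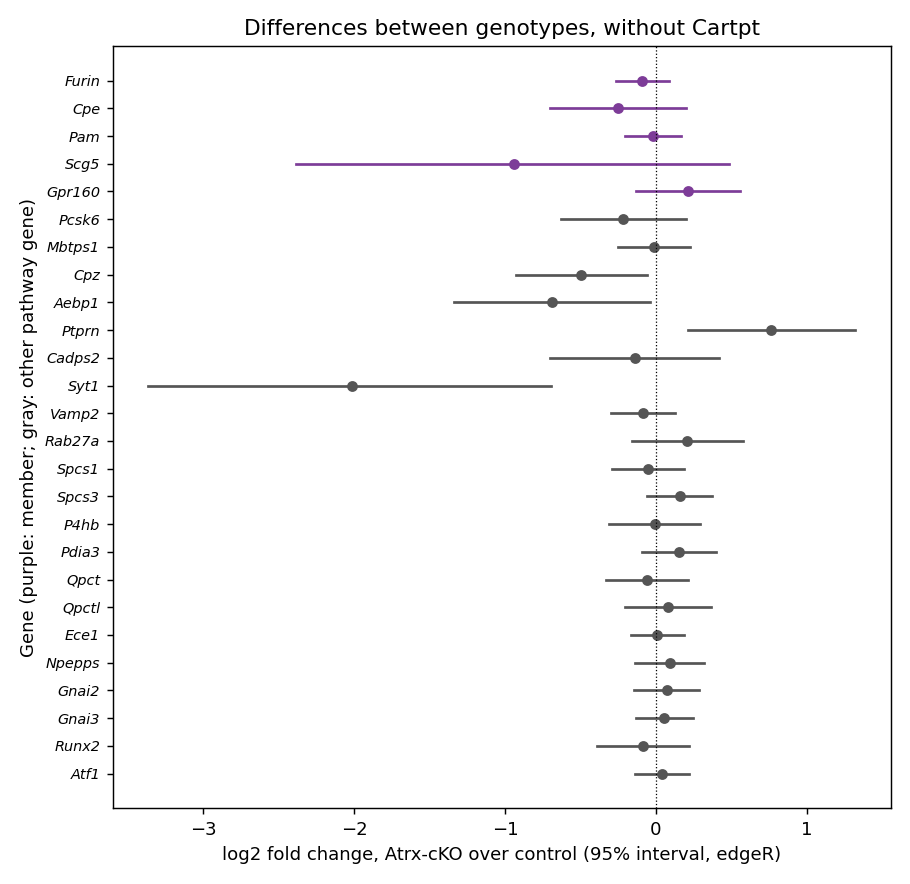
Log2 fold change of Atrx-cKO over control with a 95% interval computed from the edgeR fit, for the 5 tested genes other than *Cartpt* (purple) and for genes named from the pathway lists (gray). All 5 purple intervals cross 0, from -0.94 for *Scg5* to 0.21 for *Gpr160*. The intervals of *Cpz*, *Aebp1*, *Ptprn* and *Syt1* lie to 1 side of 0 before adjustment, and none had an adjusted p under 0.05.

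Of the 8 genes, 6 passed the expression filter and *Cartpt* alone had groups that did not overlap, against 1714 of all 20636 tested genes (8.31%). The other 5 tested genes overlapped between genotypes, and none was called by edgeR or by DESeq2, which called 37 of 23938 genes (0.155%). Intervals of the fold were narrow for *Furin* and *Pam* and wide for *Scg5*. The data thus bound a change in whole-tibia level closely for the former and poorly for the latter. They do not bound a change within preosteoblasts alone.

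Per length in Atrx-cKO tibias the order was *Cpe*, *Cartpt*, *Furin*, *Pam*, *Gpr160*, *Scg5*, *Pcsk2* and *Pcsk1*, and only the last pair overlapped between libraries. In control tibias *Cartpt* fell between *Scg5* and *Pcsk1*, and the library ranges of *Scg5* with *Cartpt*, *Cartpt* with *Pcsk1* and *Pcsk1* with *Pcsk2* overlapped. The order of *Furin* and *Pam* depended on the length used. With the longest transcript of each gene in place of merged exons, *Pam* was at 82.5 and *Furin* at 56.1 TPM in Atrx-cKO.

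In bulk RNA of Atrx-cKO tibias the *Cartpt* transcript exceeded those of *Furin*, *Pam*, *Scg5*, *Pcsk1* and *Pcsk2* but not that of *Cpe*. The ratio of *Cartpt* to *Cpe* was 0.649, 0.423 and 0.404 in Atrx-cKO replicates 1 to 3. The ratio to *Furin* was 11.6, 8.68 and 8.78, and that to *Pam* was 13.4, 11.0 and 11.1. With the longest transcript as the length they were lower, at 7.46, 5.60 and 5.66 for *Furin* and 4.78, 3.93 and 3.96 for *Pam*. *Cartpt* stood 50.1, 33.9 and 35.5 times as high as *Gpr160*, or 30.8, 20.8 and 21.9 times with the longest transcript. In control replicate 3, the same ratios were 0.0348 for *Furin* and 0.222 for *Gpr160*. These are ratios of transcripts per length over all cells of whole tibia. They do not give the balance within the cells that expressed *Cartpt*, and protein was not measured in these libraries.

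Genes for the early steps of the pathway, which every secreting cell needs, were abundant in both genotypes. All 5 genes of the signal peptidase complex, which removes signal peptides, were tested and 0 were called (median log2 fold change 0.16). Groups did not overlap for 2 of the 5, *Sec11c* and *Spcs3*, both higher in Atrx-cKO, to be read against 8.31% of all tested genes. *Spcs1* was at 133 ± 0.780 TPM in Atrx-cKO and 136 ± 10.8 TPM in control, and *Spcs3* at 115 ± 8.38 and 103 ± 8.47 TPM (SD, n = 3 each). The 6 genes of disulfide bond formation gave 0 calls as well (median 0.13). *P4hb*, protein disulfide isomerase, was at 764 ± 63.9 TPM in Atrx-cKO and 758 ± 70.7 TPM in control, and *Pdia3*, which acts on glycoproteins, at 525 ± 36.4 and 468 ± 42.6 TPM. The 2 glutaminyl cyclases, which close N-terminal glutamine into a ring, were at 17.0 TPM (*Qpct*) and 14.3 TPM (*Qpctl*) in Atrx-cKO and at 17.5 and 13.3 TPM in control, with 0 calls and a median of 0.010.

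The storage compartment of neuroendocrine cells was barely represented. Of 11 granin and dense-core granule genes, 9 were too low to be tested, 8 had a mean under 0.1 TPM, 2 (*Scg2* and *Resp18*) had no more than 3 counts in any library, and *Resp18* had 0 counts in all. The granin genes *Chga* and *Chgb*, named after their values were seen, had at most 4 and 5 counts in a library. The 2 tested genes were *Ptprn*, a granule membrane protein, and *Cadps2*, a priming factor for granule release. *Ptprn* was at 1.81, 1.40 and 1.73 CPM in Atrx-cKO and 1.10, 0.961 and 0.840 CPM in control, groups that did not overlap. Its log2 fold change was 0.76 (SE 0.24, unadjusted p = 0.0133, adjusted p = 0.992, edgeR), so it was not called. Its separation is to be read against 8.31% of all tested genes. *Cadps2* was at 2.53 ± 0.468 TPM in Atrx-cKO and 2.73 ± 0.757 TPM in control (SD, n = 3 each).

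Most genes of regulated exocytosis were present in both genotypes. Of 13 genes, 10 had a mean of at least 1 TPM and 12 were tested, with 0 called and a median log2 fold change of 0.029. *Vamp2*, a vesicle SNARE, was at 89.6 ± 7.93 TPM in Atrx-cKO and 93.7 ± 3.27 TPM in control, and *Rab27a*, a small GTPase that docks secretory organelles, at 56.7 ± 8.05 and 48.8 ± 10.6 TPM (SD, n = 3 each). *Syt1*, the calcium sensor of synaptic vesicles, was low, with 6, 5 and 10 counts in Atrx-cKO and 38, 39 and 10 in control. In CPM the groups did not overlap (0.0876 to 0.170 in Atrx-cKO and 0.210 to 0.666 in control). Its log2 fold change was -2.01 (SE 0.57, unadjusted p = 0.00824, adjusted p = 0.992, edgeR). *Snap25*, a SNARE of nerve terminals, named after its values were seen, also had groups that did not overlap, with 10, 6 and 8 counts in Atrx-cKO and 14, 16 and 13 in control (log2 fold change -0.87, SE 0.45, adjusted p = 0.992, edgeR). *Syt7*, likewise named after its values were seen, went the other way. It was at 2.98, 3.42 and 2.92 CPM in Atrx-cKO and 2.66, 2.45 and 2.42 CPM in control (log2 fold change 0.31, SE 0.17, adjusted p = 0.992, edgeR). Groups thus did not overlap for 1 gene higher and 2 lower of the 12 tested, to be read against 8.31% of all tested genes.

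Marker levels for nerve and endocrine cells are given beside these genes. The 7 neuron markers summed to 14.9 to 16.7 CPM in Atrx-cKO and 15.4 to 18.1 CPM in control. The 5 Schwann cell markers summed to 65.5 to 87.0 and 68.7 to 81.5 CPM. The 6 neuroendocrine markers summed to no more than 0.0849 CPM in Atrx-cKO and 0.195 CPM in control, and *Dbh*, which makes noradrenaline, was at 0 in every library. The *Cartpt* level in Atrx-cKO was measured in tissue whose neuroendocrine markers were near 0, and the summed neuron and Schwann cell markers overlapped between genotypes. Among the 7 neuron markers, *Stmn2*, which regulates microtubules in growing axons, alone had groups that did not overlap, at 1.71, 2.42 and 1.51 CPM in Atrx-cKO and 2.79, 2.57 and 2.63 CPM in control (log2 fold change -0.50, SE 0.23, adjusted p = 0.992, edgeR). That 1 marker is to be read against 8.31% of all tested genes whose groups did not overlap, and is no result about neurons. Of the 5 tested neuron markers, 4 had a negative log2 fold change and 0 were called. The part of nerve tissue in the *Syt1* and *Snap25* values was not tested.

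Peptidases known to degrade peptides, some at the cell surface and some inside cells, were read from a list of 12. All 12 were tested, 0 were called, and the median log2 fold change was 0.054. *Ece1*, endothelin-converting enzyme, was at 59.5 ± 1.18 TPM in Atrx-cKO and 58.4 ± 3.81 TPM in control, and *Npepps*, a cytosolic aminopeptidase, at 47.4 ± 3.04 and 44.1 ± 5.90 TPM (SD, n = 3 each). On the receiving side, CART signals have been linked to inhibitory G proteins. The 5 genes for Gi/o alpha subunits were all tested with 0 calls and a median of 0.056. *Gnai2* was at 526 ± 22.4 TPM in Atrx-cKO and 495 ± 34.7 TPM in control, and *Gnai3* at 169 ± 5.45 and 161 ± 11.8 TPM (SD, n = 3 each).

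Factors proposed to regulate *Cartpt*, at its promoter or at a distance, were read from a list of 8 genes. Of these, 6 were tested and 0 called, with a median log2 fold change of -0.017. *Runx2*, the osteoblast lineage factor, was at 70.9 ± 6.53 TPM in Atrx-cKO and 74.0 ± 8.80 TPM in control (log2 fold change -0.087, SE 0.13, adjusted p = 0.992, edgeR). *Atf1*, a relative of CREB that binds the element shown above, was at 68.3 ± 2.81 and 65.8 ± 5.32 TPM (log2 fold change 0.041, SE 0.077, adjusted p = 0.994, edgeR). The AP2 genes *Tfap2b* and *Tfap2c* were too low to be tested. *Tfap2c* had 0, 1 and 0 counts in Atrx-cKO and 2, 8 and 4 in control, and *Tfap2b* had 3, 0 and 4 against 0, 1 and 0.

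Over the 10 pathway lists, 75 genes were counted, 62 were tested and 0 were called in either direction (edgeR, adjusted p under 0.05). As 0.0145% of all tested genes were called higher and 0% lower, a count of 0 is near the background and is no result about these genes. At an unadjusted p under 0.05 there were 1 higher and 3 lower, to be read against 3.64% of all tested genes. DESeq2 also called 0 of them, against 0.155% of the genes it tested. Groups did not overlap for 5 higher and 2 lower of these genes, to be read against 8.31%.

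**Figure D4:**
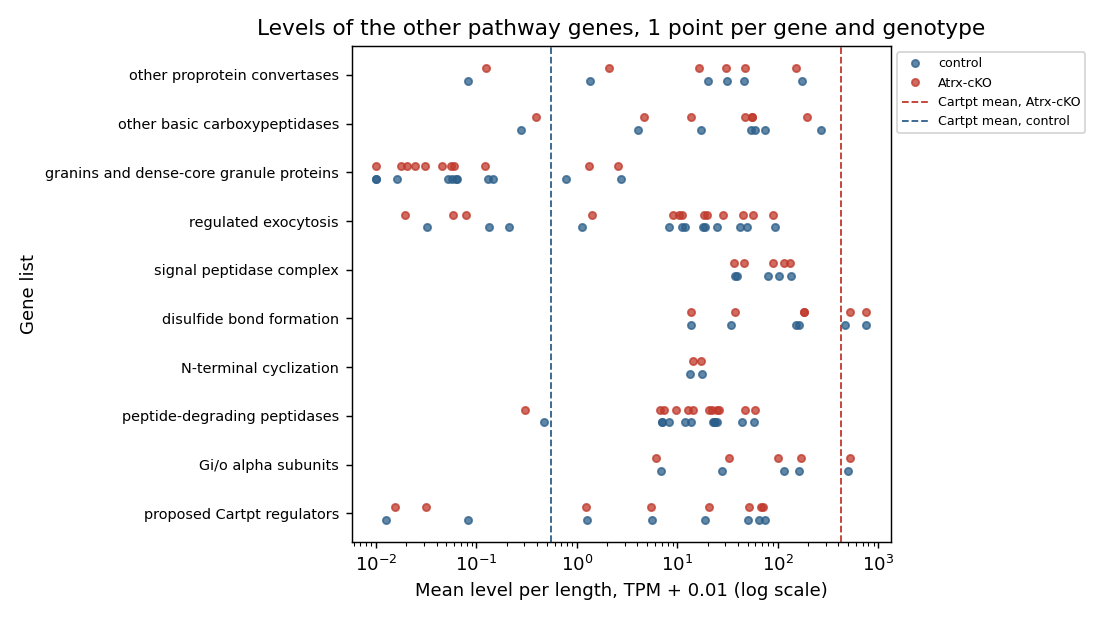
Mean level per length (TPM with 0.01 added, log axis) of each gene in the 10 pathway lists, 1 point per gene and genotype, with dashed lines at the *Cartpt* means of 429 TPM in Atrx-cKO and 0.538 TPM in control. Most granin and dense-core granule genes lie under 0.1 TPM, whereas signal peptidase, disulfide and Gi/o genes lie between 6.19 and 764 TPM.

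The tested genes with the profile most like that of *Cartpt* over the 6 libraries were *Tcfl5*, *Lyrm4* and *Igkv5-48*. Likeness was the root mean square difference of log2 CPM, each gene centered on its own mean, and it was 2.47, 3.12 and 3.25 for these genes against a median of 3.99 over all tested genes. With 0.5 CPM added before the log, *Cartpt* spanned 8.59 log2 units, a span that this addition sets because control replicate 1 was at 0, and *Tcfl5* spanned 3.38. *Tcfl5* averaged 7.26 CPM in Atrx-cKO and 0.479 CPM in control (n = 3 each). For *Gpr160* the nearest were *Foxr1*, *CT571247.2* and *Sag*, with differences of 0.032, 0.033 and 0.038 against a median of 0.25. All 3 were at 1.58 CPM or less, and shared the low value in control replicate 3. *Foxr1* was at 0 CPM in that library and at 0.245 CPM or less in every library, under the 0.5 CPM added. That addition thus largely sets its likeness to *Gpr160*.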

How the data were processed

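Tibia RNA was sequenced by GENEWIZ as paired-end, strand-specific polyadenylated libraries. The authors deposited raw counts per gene for each of the 6 libraries, used here as deposited. The submitters' processing notes name GRCm38 and DESeq2. The aligner, the counting program and its strand setting are not given in the sources used here. The 5 summary entries were left out, of which reads on no feature made up 51.6% to 52.4% of each file. Genotypes came from the labels. GENCODE M21 named 55141 of 55401 identifiers, and 260 had no name.

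Counts were fitted with edgeR 4.0.16 in R 4.3.3 (TMM, filterByExpr, quasi-likelihood test, genotype alone), with Benjamini-Hochberg adjustment over all 20636 tested genes and calls at 0.05. SE and 95% intervals were computed here from edgeR's F statistic and its coefficient without the prior count. The printed log2 fold changes include the prior count, so the intervals need not be centered on them. TPM were computed here from merged exon lengths. Replicates of a genotype differed by more than sampling noise (chi-square per degree of freedom 17.1 to 152). The labels do not tie libraries to animals, so p-values measure the spread between these libraries. Alternatives were other normalizations (RLE, upper quartile), filters, DESeq2 1.42.0, a replicate block, a muscle marker covariate, left-out libraries and other lengths. The fits were tested on simulated data.

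The 8 genes and the lists were chosen with earlier results of these data known. Named from each list were genes under an unadjusted p of 0.05 (at most 3) and the 2 with the highest mean TPM. Motif windows are from RefSeq.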

Additional observations from a re-analysis of the deposited data

How the results depend on the processing

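The 3 genes called higher in Atrx-cKO became 9 without a filter on low counts, 1 with at least 10 counts required in every library, 19 with DESeq2 and 0 with the replicate block, and 0 to 5 with 1 library left out. The 0 genes called lower became 1 without the filter, 18 with DESeq2 and 0 to 1 with 1 library left out. At an unadjusted p under 0.05, edgeR had 423 genes lower. Requiring 10 counts in every library removed *Cartpt* and *Scg5* from the tested genes, by construction. RLE, upper quartile and the muscle covariate left 3 higher and 0 lower. The log2 fold change of *Cartpt* was 9.80 with the replicate block, 9.58 with DESeq2 and 9.10 to 13.95 with 1 library left out. Its adjusted p was above 0.05 with the block and without Atrx-cKO replicate 1, 2 or 3 or control replicate 2 (edgeR). In the other runs that kept the gene it was under 0.05. *Cartpt* was chosen on this contrast, so nothing is read from these calls either way, and why they differed was not tested. The replicate numbers did not pair the libraries (correlations of same-numbered deviations -0.025, 0.062 and -0.071). The block changed no call of *Furin*, *Scg5*, *Cpe*, *Pam* or *Gpr160*.

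*Pam* changed sign with the muscle covariate (0.0044) and without control replicate 3 (0.015, in a range of -0.055 to 0.015). The other genes kept their direction in every alternative run, with left-out-library ranges of -0.44 to -0.13 for *Cpe*, -0.13 to -0.055 for *Furin*, 0.067 to 0.30 for *Gpr160* and -1.84 to -0.53 for *Scg5*. Pathway genes gave 0 calls in all settings run. *Cartpt* stayed 2nd by level per length under every length and scale tried. Depth limits *Pcsk1*, *Pcsk2* and the granins, which lie near 3 counts, and 3 libraries against 3 cannot give an exact permutation p below 0.1.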
